A study of Mus musculus with 6 samples.

Results

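Efferocytosis, the clearance of dying cells by phagocytes, depends on receptors that read phosphatidylserine on the dying cell's surface, in part through soluble proteins that bridge the phagocyte and the dying cell. The 6 genes described here are the TAM receptor tyrosine kinases Mertk, Axl and Tyro3, the bridging proteins Gas6 and Pros1, which bind phosphatidylserine through vitamin K-dependent domains and activate TAM receptors, and Mfge8, which links phosphatidylserine to integrins. They were chosen by gene symbol, and all 6 were found among the 32285 genes of the matrices. Mertk is known as the main efferocytosis receptor of resident tissue macrophages, the heart's included, and Axl as a receptor that inflammatory signals and interferon can induce. TAM signalling is also known to dampen inflammatory and interferon responses.

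The libraries hold CD45+ cells isolated from hearts of C57Bl6J mice 28 days after a microirradiator session and profiled with the 10x Genomics 3′ v3 chemistry, which counts unique molecular identifiers (UMIs) near transcript 3′ ends. The 3 groups have 2 libraries each: irradiated STING knockout (RT STING KO; 1 fraction of 12 Gy, titles naming Tmem mice), irradiated wild type (RT WT; the same 12 Gy) and sham wild type (sham WT; no radiation dose). No unirradiated STING knockout was analysed here, and both comparisons of irradiated with sham hearts use the same sham libraries, and both that involve RT WT share those libraries. Separate animals behind the 2 libraries of a group are not stated in the labels, and p-values therefore measure only the spread between libraries. STING is encoded by Tmem173, and its summed level was 40.4 and 43.1 counts-per-million (CPM) in RT STING KO, 45.5 and 41.8 CPM in RT WT, and 39.9 and 32.9 CPM in sham WT. The level thus does not separate the genotypes. Since 3′ tags may lie outside a deleted part, it checks neither label, and the knockout group is named by its label throughout.

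After filtering, 31279 of 45904 barcodes were kept as cells, with 3394 to 6014 cells and a median of 4409 to 6792 UMIs per cell in a library. The sham libraries were the shallowest per cell. From 6 to 38 barcodes were shared between any pair of libraries. Clusters, built without the 6 genes, were named from marker lists. Macrophage-like cells were the largest class with 10311 cells, against 1945 endothelial-like, 1907 monocyte-like, 679 dendritic-like and 468 fibroblast-like cells. Endothelial-like and fibroblast-like cells held little of the CD45 gene Ptprc, at 21.2 to 30.4 and 9.34 to 78.8 CPM, against 329 to 471 CPM in macrophage-like cells, so that they are cells a CD45 sort would be meant to remove.

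In GRCm38, Mertk lies at chr2:128698956-128802894 on the plus strand, Axl at chr7:25757273-25788705 on the minus strand and Tyro3 at chr2:119797733-119818104 on the plus strand. Gas6 lies at chr8:13465374-13494490 on the minus strand, Pros1 at chr16:62854307-62929346 on the plus strand and Mfge8 at chr7:79133768-79149060 on the minus strand. All 6 are protein-coding, and the principal transcripts have 19, 20, 20, 15, 15 and 10 exons in that order. The 3′ end of Gas6 overlaps Tmem255b on the opposite strand, which had 1777 UMIs in kept cells, against 48450 for Gas6. Strand-aware counting is stated in none of the sources used here, so reads of that stretch may be shared.

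Gas6 and Mfge8 were the genes of the 6 whose group differences passed a test in a whole class, so their promoters (250 bases before to 50 bases after the start, from RefSeq, GRCm38.p6) are shown 5′ to 3′ on the transcribed minus strand. Gas6 spans chr8:13494486-13494785 and Mfge8 chr7:79149011-79149310, and capitals mark the GC box GGGCGG on either strand.

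Gas6: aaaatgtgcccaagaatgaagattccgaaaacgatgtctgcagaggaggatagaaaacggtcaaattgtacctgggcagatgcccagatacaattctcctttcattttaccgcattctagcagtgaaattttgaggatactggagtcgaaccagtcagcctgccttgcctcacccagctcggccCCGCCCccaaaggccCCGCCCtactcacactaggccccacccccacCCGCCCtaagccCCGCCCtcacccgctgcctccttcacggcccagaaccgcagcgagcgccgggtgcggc
Mfge8: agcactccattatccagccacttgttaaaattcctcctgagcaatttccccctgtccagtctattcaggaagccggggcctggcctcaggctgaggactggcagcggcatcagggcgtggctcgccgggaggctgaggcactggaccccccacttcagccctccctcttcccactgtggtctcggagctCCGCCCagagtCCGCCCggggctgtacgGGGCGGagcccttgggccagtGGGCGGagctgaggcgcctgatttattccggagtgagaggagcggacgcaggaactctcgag

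Each of these promoters held 4 GC boxes, and the promoters of Mertk, Axl, Tyro3 and Pros1 held 4, 2, 6 and 5. That motif was present in 35.7% of the 32851 promoters of the same length. None of the 6 windows held the interferon-response-like GAAANNGAAA (in 3.44% of promoters), the AP-1 motif TGANTCA (7.81%), the E-box CACGTG (7.15%), the MAF half-site TGCTGAC (4.67%), the PU.1 motif GAGGAAGT (3.20%) or TATAAA (13.6%), each searched on both strands. GC content was 58.3% for Gas6 and 64.3% for Mfge8, against a median of 52.7% over all promoters. A match or its absence describes only the letters in this window.

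Levels below are a gene's UMIs summed over the cells of a class in a library, scaled as CPM to the UMIs of that class there, and each class is compared with others for the same gene. Mertk was highest in macrophage-like cells, with a mean level of 67.1 CPM and a range of 55.6 to 73.4 CPM over the 6 libraries. Endothelial-like cells came next at 45.8 CPM (36.4 to 59.4 CPM), a range that overlaps that of macrophage-like cells. Monocyte-like cells held 6.12 CPM, dendritic-like cells 5.57 CPM, and B cell-like and neutrophil-like cells 2.26 and 1.84 CPM. Of all Mertk UMIs in kept cells, the macrophage-like class supplied a median of 64.6% per library (57.9% to 69.3%).

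Axl had another order of classes. Its mean level was 497 CPM in fibroblast-like cells (413 to 589 CPM) and 152 CPM in macrophage-like cells (116 to 179 CPM), and these ranges did not overlap. It stood at 56.1 CPM in monocyte-like and 71.8 CPM in dendritic-like cells. Endothelial-like cells, which held Mertk, were at the bottom for Axl with 7.12 CPM (5.12 to 11.5 CPM), overlapping B cell-like cells at 8.42 CPM. The T cell-like class held 91.1 CPM of Axl, and it also carried 6137 to 10099 CPM of the 12 macrophage markers, against 1012 to 1938 CPM in B cell-like cells. Monocyte-like cells carried 5695 to 8654 CPM of these markers, dendritic-like cells 1893 to 4306 CPM and cycling cells 13981 to 18335 CPM. The part of macrophage RNA or doublets in the Axl values of these classes was not tested.

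Tyro3 was barely captured, with 87 UMIs in all kept cells. Fibroblast-like cells held 36 of them, at a mean of 10.5 CPM (6.67 to 16.9 CPM), and endothelial-like cells 20, at 1.11 CPM. Macrophage-like cells held 3 Tyro3 UMIs among 74048767 UMIs. No Tyro3 UMI was seen in monocyte-like cells among 11594802 UMIs, which allows a level of up to 0.259 CPM at 3 counts. No Tyro3 UMI was seen in B cell-like, dendritic-like or neutrophil-like cells either. The small ILC2-like, erythroid-like, mast cell- or basophil-like and Schwann-like classes also had 0, which in those few UMIs allows up to 4.58 to 40.5 CPM. Among cells of the macrophage line, the TAM receptor messages captured here were thus almost all those of Mertk and Axl.

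**Figure D1:**
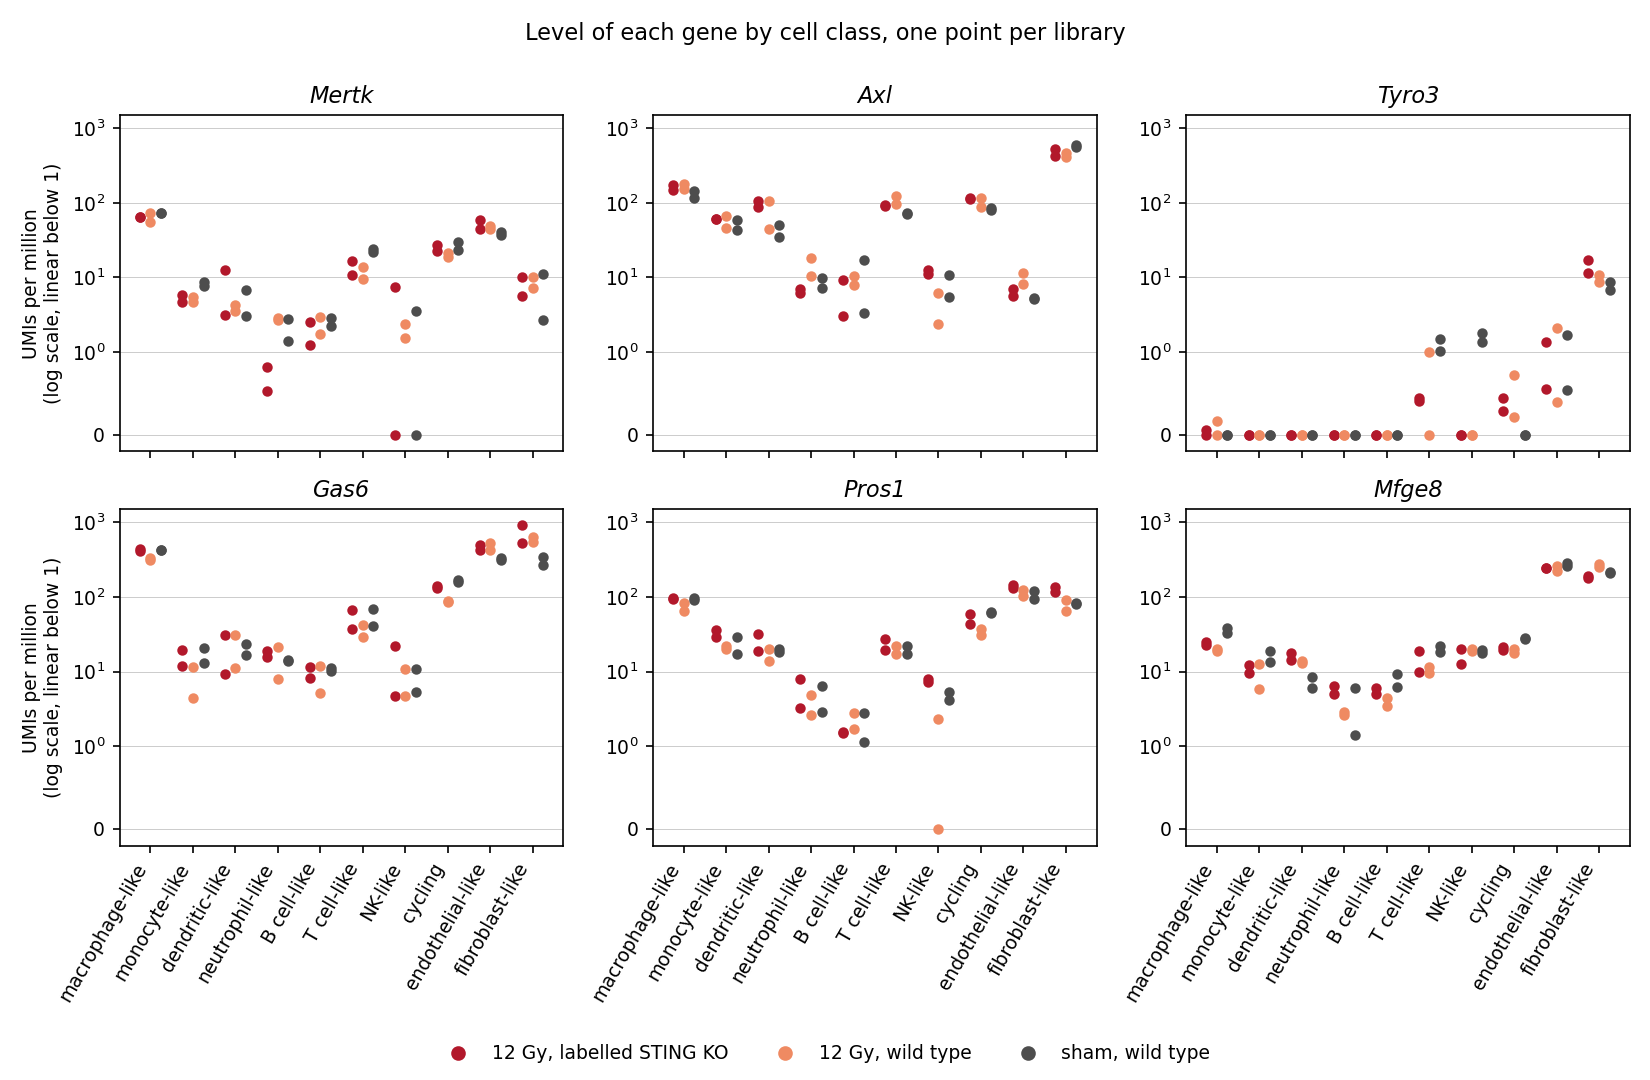
Level of each of the 6 genes (CPM, log scale that is linear below 1) in 10 cell classes, 1 point per library, coloured by group. Mertk peaks in macrophage-like and endothelial-like cells, Axl in fibroblast-like and then macrophage-like cells, and Tyro3 stays near 0 outside fibroblast-like cells.

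The bridging molecules were spread over several classes. Gas6, the bridging ligand that all 3 TAM receptors bind, had mean levels of 542 CPM in fibroblast-like (269 to 923 CPM), 423 CPM in endothelial-like (311 to 537 CPM) and 393 CPM in macrophage-like cells (314 to 439.5 CPM). Those 3 ranges overlapped, and each lay above cycling cells at 128 CPM. Pros1, known also as the anticoagulant protein S, showed the same leading classes with 119 CPM in endothelial-like, 94.9 CPM in fibroblast-like and 88.1 CPM in macrophage-like cells. B cell-like cells had 9.69 CPM of Gas6 and 1.92 CPM of Pros1. Through its cell number the macrophage-like class supplied a median of 62.0% of Gas6 UMIs and 50.1% of Pros1 UMIs per library.

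Mfge8 was foremost a gene of the non-immune cells. Its mean level was 254 CPM in endothelial-like (224 to 287 CPM) and 221 CPM in fibroblast-like cells (180 to 278 CPM), ranges that overlap each other and lie far above the 26.4 CPM of macrophage-like cells (18.8 to 38.2 CPM). A cluster of 347 cells set aside for holding markers of mural and other cells reached 717 CPM over all libraries. Macrophage-like cells supplied a median of 14.9% of Mfge8 UMIs, against 33.6% from endothelial-like cells. Cycling, natural killer (NK) cell-like and T cell-like cells held 18.0 to 28.1, 12.6 to 20.2 and 9.47 to 21.7 CPM over the libraries. Each of these ranges overlapped that of macrophage-like cells. B cell-like and neutrophil-like cells were the lowest of the 10 classes, with means of 5.74 and 4.06 CPM.

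Within single macrophage-like cells thinned to 2000 UMIs, Gas6 was detected in 36.3% to 47.6% of cells per library, Axl in 21.5% to 31.1%, Pros1 in 11.1% to 15.8%, Mertk in 9.77% to 13.5% and Mfge8 in 3.73% to 8.29%. The same thinned shares in B cell-like cells were 0.54% to 2.59% for Gas6, 0.20% to 1.29% for Axl, 0% to 0.86% for Mertk and 0.72% to 2.59% for Mfge8. NK cell-like cells reached 4.76% for Gas6 and 4.57% for Mfge8, and neutrophil-like cells reached 2.99% for Axl. The highest NK cell-like share for Mfge8 was above the lowest macrophage-like share of 3.73%. The level that free RNA can give was not estimated. Before thinning, the median depth was 6389 UMIs in macrophage-like and 2798 in B cell-like cells, and the macrophage-like shares averaged 65.2% for Gas6, 50.5% for Axl, 37.5% for Pros1, 32.4% for Mertk and 15.6% for Mfge8. Mertk and Axl were found together in 2.05% to 3.02% of thinned macrophage-like cells. Thinning left out 196 RT STING KO, 216 RT WT and 181 sham WT macrophage-like cells.

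Irradiation and the knockout label were compared in macrophage-like cells, the class that carries both receptors. Of the 6 genes, 5 passed the filter on low counts there and Tyro3 did not. With edgeR's quasi-likelihood test and Benjamini-Hochberg adjustment over 12421 genes, 2 of the 5, Mfge8 and Gas6, fell in RT WT against sham WT, where 6.36% of all genes tested were called. In RT STING KO against sham WT, 1 of the 5, Mfge8, fell, with 4.32% of all genes called. In RT STING KO against RT WT, 0 of the 5 passed with edgeR (2.09% of genes called), 1 had an unadjusted p under 0.05, and DESeq2 called 1. The median log2 fold change of the 5 genes was -0.31, 0.17 and -0.12 in RT WT against sham WT, RT STING KO against RT WT and RT STING KO against sham WT, while the medians over all tested genes were -0.00326, -0.00145 and 0.0025.

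Mfge8 stood at 25.0 and 22.8 CPM in RT STING KO macrophage-like cells, 18.8 and 20.3 CPM in RT WT and 33.4 and 38.2 CPM in sham WT. Both irradiated groups lay below both sham libraries without overlap. The log2 fold change was -0.86 ± 0.12 (SE, adjusted p = 0.00782) for RT WT against sham WT and -0.68 ± 0.11 (adjusted p = 0.0154) for RT STING KO against sham WT. Between RT STING KO and RT WT it was 0.17 ± 0.12 (adjusted p = 0.460), which does not show that the irradiated groups were alike. The RT STING KO call was lost without RT STING KO library 2 (adjusted p = 0.142) or sham WT library 2 (adjusted p = 0.0732). When only cells with at most 5% mitochondrial UMIs were kept, both calls were lost, at log2 fold changes of -0.97 for RT WT (adjusted p = 0.134) and -0.39 for RT STING KO (adjusted p = 0.496) against sham WT, with 307 to 656 macrophage-like cells left per library.

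The share of thinned macrophage-like cells with a Mfge8 UMI was 5.60% and 4.62% in RT STING KO, 3.73% and 4.27% in RT WT, and 7.19% and 8.29% in sham WT. The exact 95% binomial interval of the lowest, RT WT library 1, was 2.70% to 5.01%, and that of the highest, sham WT library 2, was 7.06% to 9.65%. These intervals cover counting error only. Cells of other classes carried Mfge8 that also differed between libraries. B cell-like cells held 5.06 and 5.97 CPM in RT STING KO and 3.43 and 4.47 CPM in RT WT. In sham WT they held 9.37 and 6.16 CPM. NK cell-like cells, with 64 Mfge8 UMIs, had means of 16.4, 19.5 and 18.7 CPM in RT STING KO, RT WT and sham WT. The RT WT mean of macrophage-like cells was also 19.5 CPM. In cycling cells the Mfge8 means were 20.6, 18.9 and 27.8 CPM in RT STING KO, RT WT and sham WT. In that order, T cell-like cells held 14.4, 10.5 and 20.1 CPM and monocyte-like cells 10.9, 9.15 and 16.1 CPM. Neutrophil-like cells held 5.67, 2.76 and 3.74 CPM. Dendritic-like cells went the other way, at 16.0, 13.4 and 7.25 CPM. No Mfge8 change passed in monocyte-like or dendritic-like cells. Cycling and lymphocyte-like classes were not tested. All 10 cardiomyocyte genes were detected in macrophage-like cells, and their summed level was 205 to 207 CPM in RT STING KO, 236 to 255 CPM in RT WT and 299 to 306 CPM in sham WT. The 8 mural markers, from the cells richest in Mfge8, were all detected there too and summed to 18.5 to 19.0, 14.9 to 21.3 and 20.5 to 23.8 CPM in the same groups. Markers of the other Mfge8-rich classes went the other way. The 10 endothelial markers summed to 103 to 117, 67.3 to 102 and 58.7 to 89.4 CPM. The 8 fibroblast markers summed to 183.7 to 184.2, 167 to 196 and 158 to 169 CPM. Both sums were above sham WT in RT STING KO and overlapped it in RT WT. The 5 erythroid markers summed to 7.53 to 8.53 CPM in RT STING KO, 74.4 to 274 CPM in RT WT and 78.7 to 274 CPM in sham WT. Macrophage markers, 12 in all, summed to 35113 to 37200, 36695 to 37428 and 42099 to 44298 CPM, lower in both irradiated groups. The part of RNA from other cells, or of the lower macrophage marker sum, in the Mfge8 difference was not tested.

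**Figure D2:**
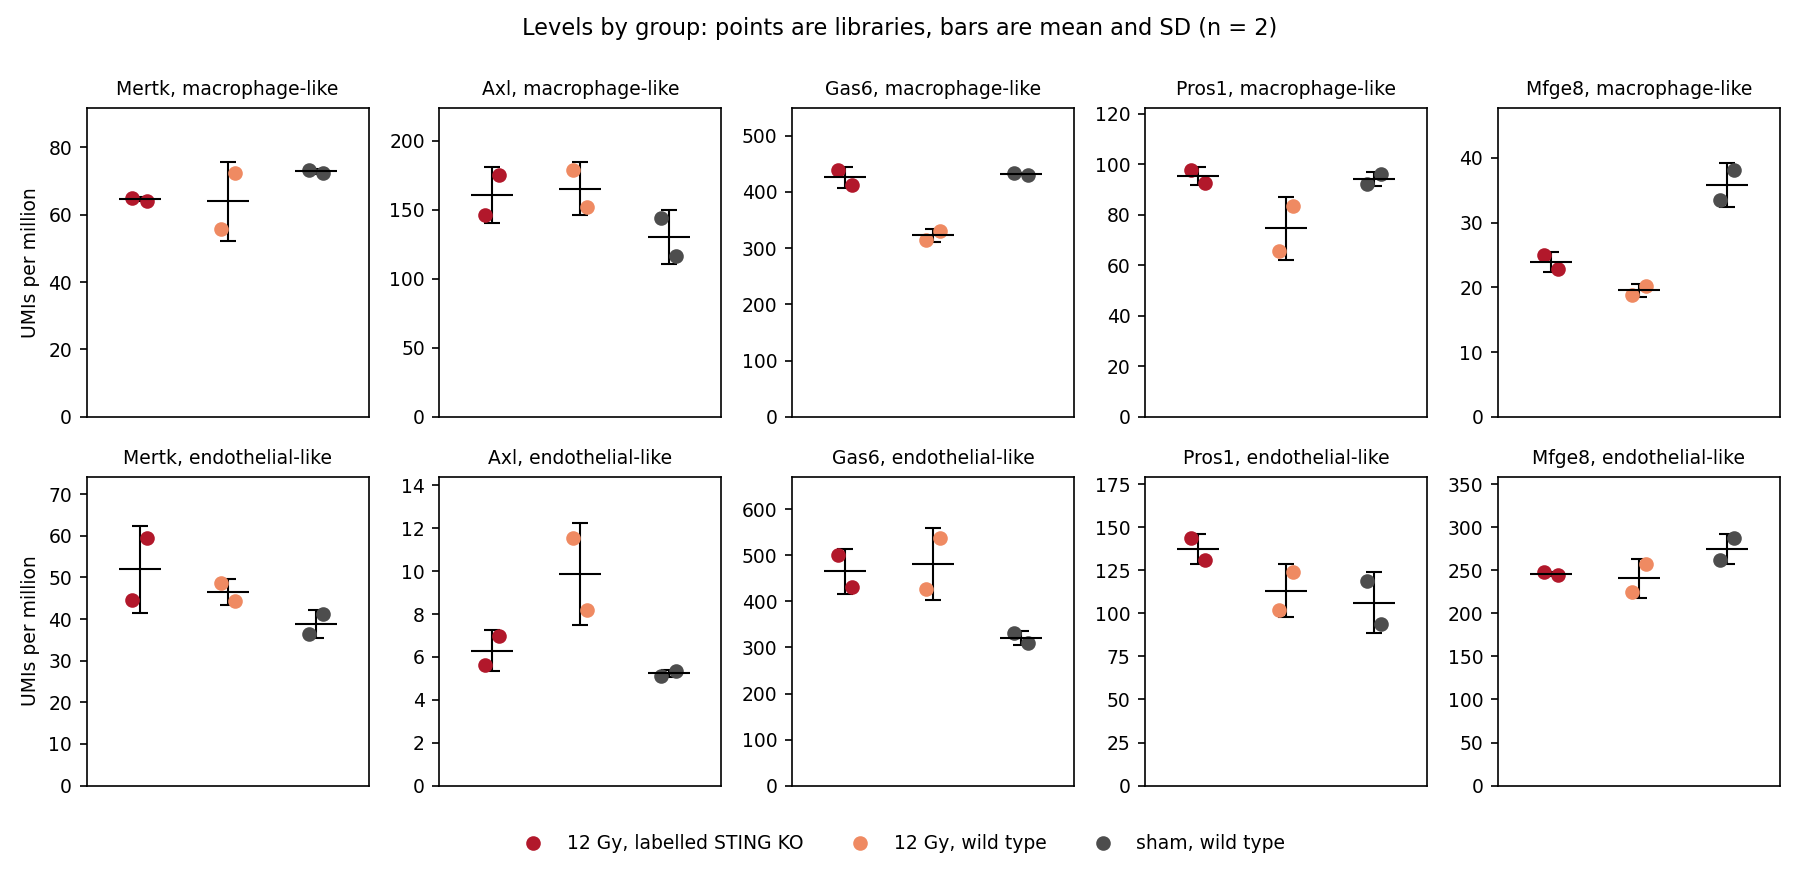
Levels (CPM) of Mertk, Axl, Gas6, Pros1 and Mfge8 in macrophage-like cells (top) and endothelial-like cells (bottom), with 1 point per library and the mean and SD of 2 libraries. In macrophage-like cells Mfge8 is below sham WT in both irradiated groups and Gas6 in RT WT, while in endothelial-like cells Gas6 is above sham WT in both irradiated groups.

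The macrophage-like class was made of 5 clusters, 4 of which had enough cells to test. Cluster 0 led with Cd209f, Lyve1, Folr2 and Cd163, cluster 3 with Lilra5 and Cx3cr1, cluster 2 with Mmp13, Tnf and Ccl4, and cluster 17 with the interferon-stimulated genes Ifit3 and Ifit2. In cluster 3, Mfge8 was at 27.5 and 20.3 CPM in RT STING KO, 18.0 and 19.1 CPM in RT WT and 49.0 and 43.1 CPM in sham WT. It fell there by 1.05 ± 0.17 on the log2 scale (SE, edgeR adjusted p = 0.00264) in RT STING KO and by 1.31 ± 0.21 (adjusted p = 0.00329) in RT WT, each against sham WT. In cluster 2 the levels were 23.5 and 20.1, 18.6 and 21.3, and 33.0 and 31.1 CPM in the same groups. Mfge8 fell there too, with log2 fold changes of -0.67 ± 0.17 (adjusted p = 0.0326) in RT STING KO and -0.68 ± 0.17 (adjusted p = 0.0424) in RT WT. In cluster 0 the call passed for RT STING KO (-0.69 ± 0.17, adjusted p = 0.0367) and not for RT WT (-0.75 ± 0.20, adjusted p = 0.0869), and in cluster 17 it passed for neither. Cluster 17 had 78 Mfge8 UMIs, with means of 12.9 CPM in RT STING KO, 13.5 CPM in RT WT and 45.6 CPM in sham WT, and log2 fold changes of -1.80 ± 0.53 (adjusted p = 0.233) in RT STING KO and -1.68 ± 0.49 (adjusted p = 0.340) in RT WT. The share of all genes called in these cluster comparisons with sham WT was 5.46% for RT STING KO and 4.42% for RT WT in cluster 3, 4.33% and 3.42% in cluster 2, 4.95% and 1.65% in cluster 0, and 0.5% and 0.171% in cluster 17. A difference in the size of the Mfge8 change between clusters was not tested.

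In RT STING KO against RT WT, edgeR called 0 of 5 genes in each of clusters 0, 2, 3 and 17, where 2.18%, 2.03%, 1.36% and 0.211% of all genes were called, and 0 of the 5 had an unadjusted p under 0.05 in any of them. DESeq2 was not run within clusters. The unnamed clusters 14, led by cardiomyocyte genes, and 15, led by Mmp12 and Retnla, also scored highest for macrophage markers. By edgeR 0 of 5 genes were called in each of their comparisons, with 2, 1 and 2 at an unadjusted p under 0.05 in cluster 14 and 1, 0 and 2 in cluster 15, for RT STING KO against RT WT, RT STING KO against sham WT and RT WT against sham WT. The shares of all genes called were 0.389%, 1.97% and 1.26% in cluster 14 and 0.158%, 0.632% and 0.361% in cluster 15. Mfge8 in cluster 14 was at 23.7 and 26.3 CPM in RT STING KO, 13.3 and 12.6 CPM in RT WT, and 33.0 and 31.6 CPM in sham WT. The order of the groups was that of the macrophage-like class, and the change of -1.33 ± 0.35 in RT WT against sham WT did not pass (adjusted p = 0.0910).

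Gas6 was at 439.5 and 413 CPM in RT STING KO macrophage-like cells, 314 and 331 CPM in RT WT and 433 and 431 CPM in sham WT. Both RT WT libraries lay below the other 4, which spanned 413 to 439.5 CPM. Gas6 fell in RT WT against sham WT by 0.40 ± 0.08 on the log2 scale (SE, edgeR adjusted p = 0.0258), and the log2 fold change of RT STING KO against sham WT was -0.12 ± 0.08 (adjusted p = 0.416). For RT STING KO against RT WT it was 0.28 ± 0.08 with an unadjusted p of 0.00682 and an adjusted p of 0.110, and DESeq2 gave an adjusted p of 0.0453. The fall in RT WT is a close call: leaving out any 1 of the 6 libraries gave log2 fold changes of -0.45 to -0.36 and adjusted p of 0.0519 to 0.134, so that it did not pass in any of these refits.

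The clusters differed in Gas6 more than the groups did. Gas6 was at 727 and 753 CPM in RT STING KO, 679 and 648 CPM in RT WT and 628 and 638 CPM in sham WT in cluster 0. In cluster 2 it was at 161 and 164, 127 and 138, and 167 and 149 CPM in the same groups, and in cluster 3 at 354 and 335, 297 and 301, and 321 and 327 CPM. Within clusters, the log2 fold change of RT WT against sham WT was 0.05 ± 0.08 in cluster 0, -0.27 ± 0.10 in cluster 2, -0.11 ± 0.10 in cluster 3 and -0.43 ± 0.23 in cluster 17, and none passed the adjusted test. Cluster 0 made up 35.3% and 30.1% of macrophage-like cells in RT STING KO, 20.6% and 27.7% in RT WT, and 41.5% and 44.8% in sham WT. Cluster 17 made up 3.30% and 6.48%, 16.6% and 11.3%, and 1.73% and 1.49% in the same groups. Genes that define clusters themselves differed between groups, so these shares are given only as the makeup behind the summed levels. Their part in the Gas6 result was not tested. The RT WT mean of Gas6 was also the lowest in several other classes. Cycling cells held 134, 87.4 and 163 CPM in RT STING KO, RT WT and sham WT. In that order, T cell-like cells held 51.8, 35.5 and 55.4 CPM and monocyte-like cells 15.5, 7.95 and 16.6 CPM. The RT WT mean was not the lowest in neutrophil-like (17.2, 14.5 and 14.1 CPM), dendritic-like, endothelial-like or fibroblast-like cells. The part of macrophage RNA in these values was not tested.

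Axl was low where Gas6 was highest, and the clusters showed no single opposite order. Cluster 0, highest in Gas6, held 49.2 to 82.2 CPM of Axl, against 190 to 224 CPM in cluster 2, 185 to 251 CPM in cluster 3 and 187 to 279 CPM in cluster 17, and its range overlapped none of these. Summed over all libraries, cluster 3 was above cluster 2 in both genes, with 220 against 209 CPM of Axl and 329 against 151 CPM of Gas6, and cluster 21, with 255 cells, was low in both at 89.4 and 30.2 CPM. Mertk varied less, from 71.2 to 103 CPM in cluster 0 and from 47.3 to 72.9 CPM in cluster 2. Cluster 15, with 724 cells, held 206 to 286 CPM of Axl with 20.2 to 61.7 CPM of Gas6 and 5.45 to 40.2 CPM of Mertk. The clusters were formed on the other genes of the same cells, so these orders are descriptions with no test.

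**Figure D3:**
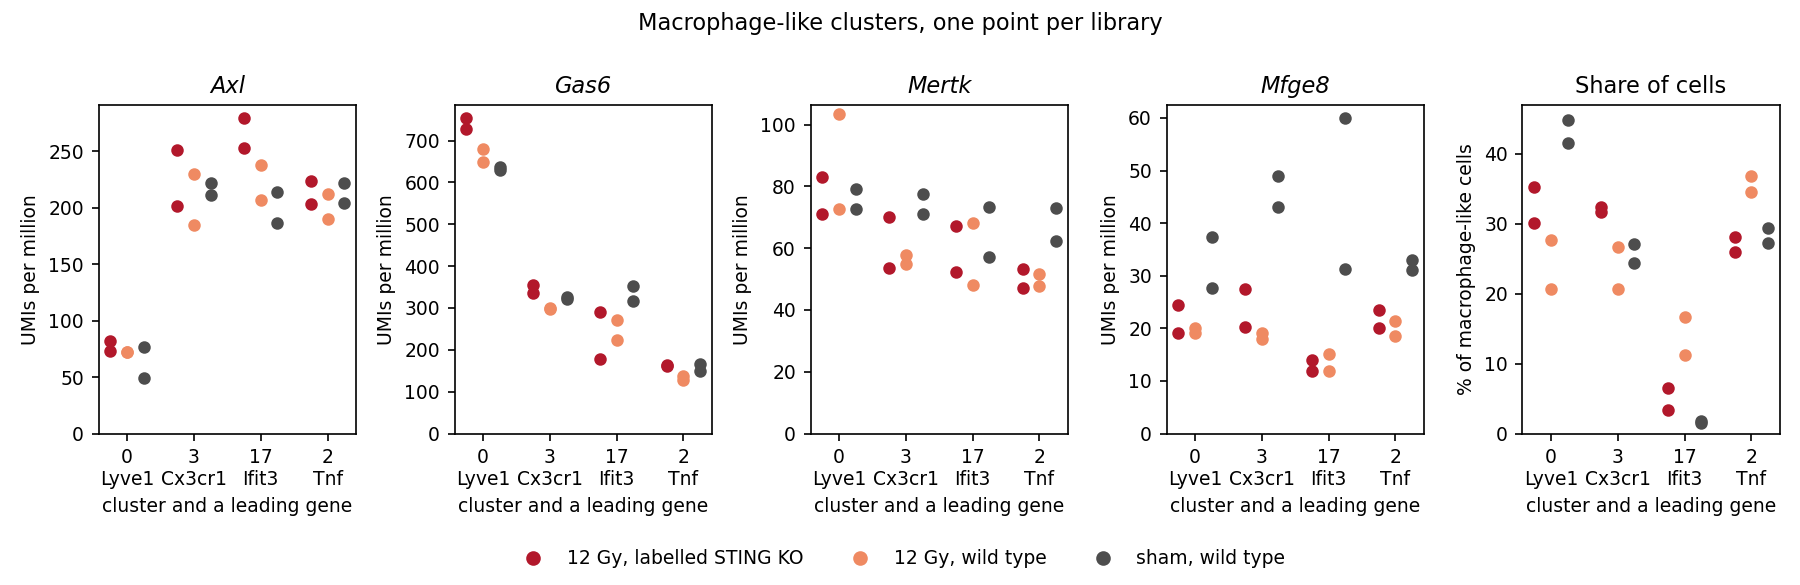
Levels (CPM) of Axl, Gas6, Mertk and Mfge8 in 4 macrophage-like clusters, and the percentage of macrophage-like cells in each cluster, with 1 point per library coloured by group. Axl is lowest and Gas6 highest in cluster 0, and Mfge8 in clusters 2 and 3 is lower in both irradiated groups than in sham WT.

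The receptors themselves passed no adjusted test in macrophage-like cells as a class. Mertk was at 65.0 and 64.2 CPM in RT STING KO, 55.6 and 72.3 CPM in RT WT and 73.4 and 72.4 CPM in sham WT. All 4 irradiated libraries were below the lower sham library, RT WT library 2 by a narrow margin. The log2 fold changes were -0.28 ± 0.12 (SE, edgeR adjusted p = 0.231) in RT STING KO and -0.17 ± 0.12 (adjusted p = 0.442) in RT WT against sham WT. Mertk was also followed by cluster, and differences between clusters in its change were not tested. In cluster 0 the mean was 77.1 CPM in RT STING KO, 88.1 CPM in RT WT and 75.9 CPM in sham WT, with log2 fold changes of -0.08 ± 0.14 (adjusted p = 0.821) and 0.22 ± 0.15 (adjusted p = 0.538) against sham WT. In cluster 3 these changes were -0.37 ± 0.14 (adjusted p = 0.166) and -0.39 ± 0.16 (adjusted p = 0.194). In cluster 2, Mertk was at 53.4 and 47.3 CPM in RT STING KO, 47.7 and 51.7 CPM in RT WT, and 62.5 and 72.9 CPM in sham WT. It fell there in RT STING KO by 0.55 ± 0.13 on the log2 scale (adjusted p = 0.0299), and the change of -0.45 ± 0.14 in RT WT did not pass (adjusted p = 0.0849), both against sham WT.

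Axl was at 147 and 175 CPM in RT STING KO macrophage-like cells, 179 and 152 CPM in RT WT and 144 and 116 CPM in sham WT. The irradiated libraries were above both sham libraries, RT STING KO library 1 by a narrow margin. The log2 fold change was 0.36 ± 0.13 in RT WT (edgeR adjusted p = 0.135) and 0.21 ± 0.13 in RT STING KO (adjusted p = 0.391) against sham WT. Within clusters, the RT WT mean was 72.1 against 62.7 CPM in sham WT in cluster 0, 201 against 213 CPM in cluster 2, 207 against 217 CPM in cluster 3 and 222 against 200.2 CPM in cluster 17, and no Axl change passed in any of them. Cluster 0, low in Axl, was a smaller share of the irradiated libraries, as given above, and the part of this makeup in the Axl levels of the class was not tested. Pros1 was at 97.9 and 92.8 CPM in RT STING KO, 65.9 and 83.5 CPM in RT WT, and 92.2 and 96.3 CPM in sham WT. Both RT WT libraries were the lowest for Pros1, but the change of -0.31 ± 0.12 against sham WT did not pass (adjusted p = 0.163).

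Endothelial-like cells, the other class rich in bridging molecules, were compared next. With 5 of the 6 genes tested, 1 rose in RT WT against sham WT (5.03% of all genes called). By edgeR 0 of the 5 were called in RT STING KO against sham WT (6.24% of genes called) and 0 in RT STING KO against RT WT (0.037%), with 1 at an unadjusted p under 0.05 in each, and DESeq2 called 0 in both. Gas6 was at 499.9 and 431 CPM in RT STING KO, 426 and 537 CPM in RT WT, and 332 and 311 CPM in sham WT. All 4 irradiated libraries were above both sham libraries. Gas6 rose in RT WT by 0.61 ± 0.14 on the log2 scale (SE, edgeR adjusted p = 0.0430). The change of 0.49 ± 0.14 in RT STING KO against sham WT did not pass (adjusted p = 0.0738). The call in RT WT was lost on leaving out any 1 library except RT WT library 1, with adjusted p of 0.0126 to 0.176 over the 6 refits. The share of thinned endothelial-like cells with a Gas6 UMI was 59.4% and 61.4% in RT STING KO, 55.4% and 61.7% in RT WT, and 45.8% and 44.3% in sham WT.

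Other RNA in endothelial-like cells moved with irradiation. The 10 cardiomyocyte genes, all detected, summed to 648 to 655 CPM in RT STING KO, 550 to 725 CPM in RT WT and 1009 to 1363 CPM in sham WT. The 8 mural markers, also all detected, summed to 122 to 159, 154 to 203 and 287 to 333 CPM in the same groups. The 12 macrophage markers, all detected as well, summed to 504 to 562, 517 to 1049 and 832 to 1360 CPM. The cardiomyocyte and mural sums were lower in all 4 irradiated libraries than in both sham libraries, while the macrophage sums of RT WT and sham WT overlapped. The 8 cycling markers, all detected, were higher with irradiation and summed to 448 to 557 CPM in RT STING KO, 300.0 to 414 CPM in RT WT and 183 to 198 CPM in sham WT. By edgeR 6 of these 8 rose in RT STING KO and 4 of 8 in RT WT against sham WT. The 10 dendritic markers, 1 of them at 0, were also higher, at 345 to 373, 344 to 407 and 253 to 284 CPM in the same groups. The 8 fibroblast markers, all detected, summed to 32.3 to 67.4, 35.8 to 160 and 32.6 to 49.5 CPM, ranges that overlap. The class itself joined cluster 5, at 436 CPM of Gas6 over all libraries, and cluster 26, with 54 cells at 693 CPM. The part of any of these lists or of this makeup in the Gas6 result was not tested. Mfge8, at 248 and 244 CPM in RT STING KO, 224 and 257 CPM in RT WT and 262 and 287 CPM in sham WT, gave changes of -0.21 ± 0.12 and -0.17 ± 0.12 against sham WT that did not pass (edgeR adjusted p = 0.327 and 0.429).

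The other genes of the 6 passed no test in endothelial-like cells. Mertk was at 44.6 and 59.4 CPM in RT STING KO, 48.7 and 44.4 CPM in RT WT, and 36.4 and 41.2 CPM in sham WT. The irradiated libraries were all above sham WT, with changes of 0.35 ± 0.18 (SE, edgeR adjusted p = 0.290) in RT STING KO and 0.28 ± 0.19 (adjusted p = 0.422) in RT WT. Pros1 was at 144 and 131 CPM in RT STING KO, 102 and 124 CPM in RT WT, and 119 and 93.6 CPM in sham WT, so that RT STING KO lay above the other groups. Its change of 0.32 ± 0.15 against sham WT did not pass (adjusted p = 0.235). Axl was at 5.61 and 6.97 CPM in RT STING KO, 11.5 and 8.17 CPM in RT WT, and 5.12 and 5.35 CPM in sham WT, from 124 UMIs in all. These levels lie within the range of B cell-like cells, 3.04 to 16.9 CPM, and are not read as expression or as a difference.

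Gas6 thus had opposite signs in these classes in RT WT against sham WT, and the difference was tested directly. The macrophage-like minus the endothelial-like log2 fold change of Gas6 was -0.98 ± 0.14 (SE, edgeR interaction, adjusted p = 0.00970), where 1.06% of 13627 genes were called. That of Mfge8 was -0.66 ± 0.14 (adjusted p = 0.0493). The Gas6 call passed without either RT STING KO or either RT WT library (adjusted p = 0.00593 to 0.0232) and was lost without sham WT library 1 (-1.04, adjusted p = 0.0616) or sham WT library 2 (-0.93, adjusted p = 0.0952). The Mfge8 call was lost in every such refit: its adjusted p was 0.0745 to 0.210 whichever library was left out. For RT STING KO against sham WT, where 1.72% of genes were called, the Gas6 difference was -0.61 ± 0.14 (adjusted p = 0.0595) and the Mfge8 difference -0.47 ± 0.13 (adjusted p = 0.105).

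Fibroblast-like cells, few in number, were tested in the same way. Gas6 was at 531 and 923 CPM in RT STING KO, 645 and 539 CPM in RT WT, and 269 and 348 CPM in sham WT. The irradiated libraries again lay above both sham libraries, but no gene of the 4 tested was called by edgeR. The log2 fold changes of Gas6 were 1.08 ± 0.24 in RT STING KO (SE, adjusted p = 0.191) and 0.91 ± 0.25 in RT WT (adjusted p = 0.520) against sham WT. The unadjusted p-values were 0.000991 and 0.00348, in comparisons that called 0.0705% and 0.0117% of all genes. DESeq2 called 1 of the 4 genes in RT STING KO against sham WT and 0 in the other comparisons. At unadjusted p under 0.05 there were 2, 1 and 2 genes in RT STING KO against sham WT, RT STING KO against RT WT (0.0587% of genes called) and RT WT against sham WT. Mfge8 was at 189 and 180 CPM in RT STING KO, 252 and 278 CPM in RT WT and 210 and 219 CPM in sham WT. The RT STING KO libraries were the lowest, and the change of -0.65 ± 0.19 against RT WT did not pass (adjusted p = 0.444). Axl was at 525 and 428 CPM in RT STING KO, 472 and 413 CPM in RT WT, and 553 and 589 CPM in sham WT, with all irradiated libraries below sham WT. Its changes of -0.40 ± 0.17 in each irradiated group did not pass (adjusted p = 0.606 in RT STING KO and 0.892 in RT WT).

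In monocyte-like and dendritic-like cells no gene of the 5 and 4 tested was called in any comparison by edgeR or DESeq2. The shares of all genes called in RT STING KO against RT WT, RT STING KO against sham WT and RT WT against sham WT were 0.768%, 0.642% and 0.103% in monocyte-like cells and 0.0856%, 0.293% and 0.0122% in dendritic-like cells. At unadjusted p under 0.05 there were 1, 0 and 1 genes in monocyte-like cells and 0, 2 and 0 in dendritic-like cells, in the same order. Axl in dendritic-like cells was at 87.6 and 107 CPM in RT STING KO, 107 and 44.0 CPM in RT WT, and 34.9 and 50.6 CPM in sham WT. The RT STING KO libraries lay above both sham libraries, RT WT library 2 lay between the sham libraries, and the change of 1.09 ± 0.37 in RT STING KO against sham WT did not pass (edgeR adjusted p = 0.409). Over all kept cells together, 0 of the 6 genes were called by edgeR or DESeq2 in any of the 3 comparisons, with 2, 0 and 2 at unadjusted p under 0.05 in RT STING KO against RT WT, RT STING KO against sham WT and RT WT against sham WT. There 0.0191%, 0.0445% and 0.0127% of all genes were called.

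**Figure D4:**
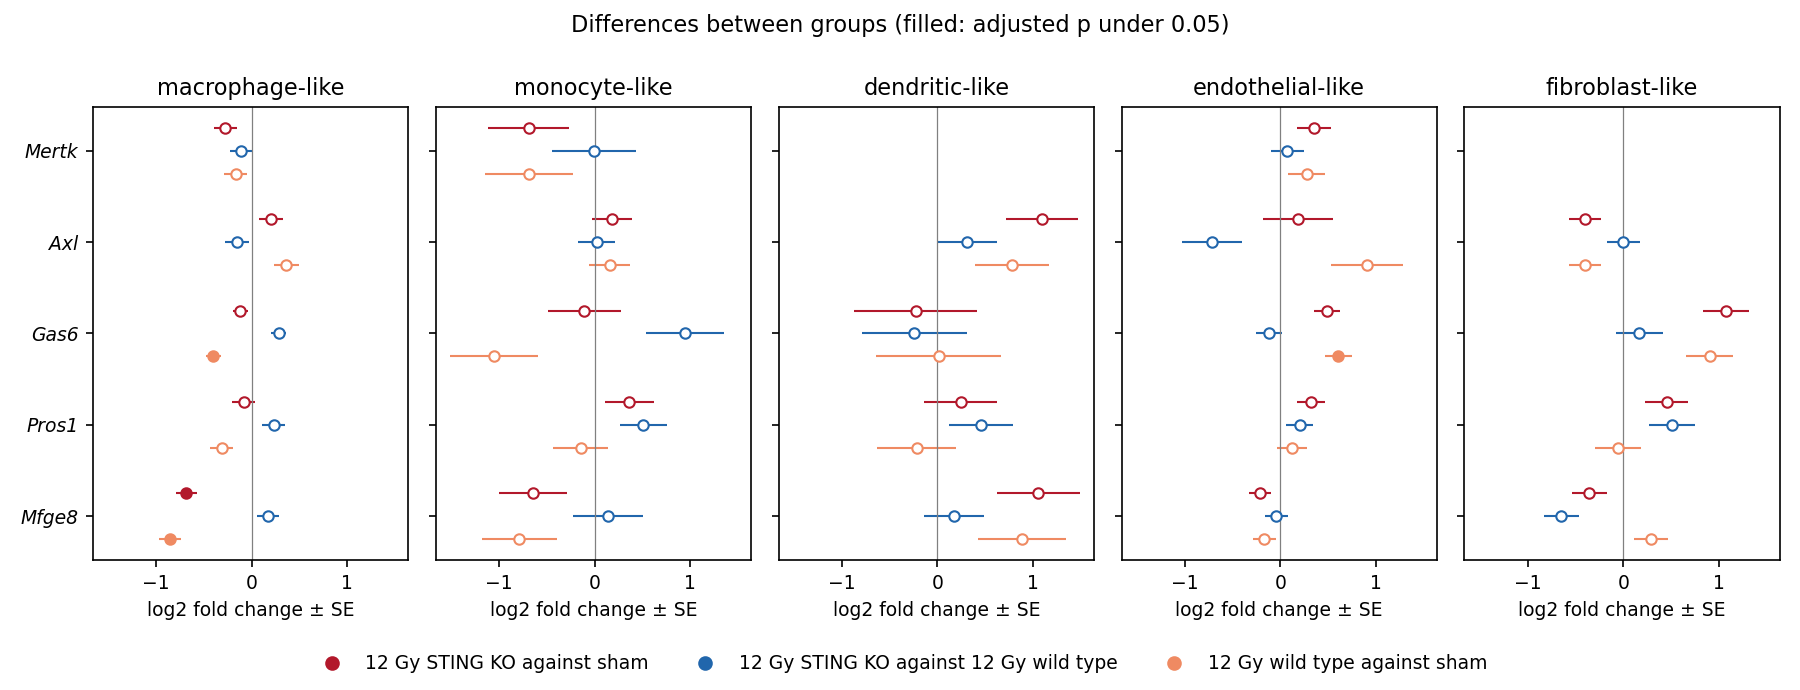
Log2 fold change ± SE of the 5 genes tested, per class and comparison, filled where the edgeR adjusted p is under 0.05. The filled points are Mfge8 in macrophage-like cells of both irradiated groups against sham WT, at -0.68 and -0.86, and Gas6 in RT WT against sham WT, at -0.40 in macrophage-like and 0.61 in endothelial-like cells.

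The rest of the efferocytosis machinery was followed in macrophage-like cells through gene lists, with edgeR adjusted p under 0.05 as the call. Of all genes tested there, 6.36% were called in RT WT against sham WT, 4.32% in RT STING KO against sham WT and 2.09% in RT STING KO against RT WT. Of 15 other phosphatidylserine receptors tested, 1 rose and 1 fell in RT WT against sham WT, with a median log2 fold change of 0.04. Scarf1, a scavenger receptor for C1q-coated dying cells, rose by 1.75 ± 0.28 (SE, adjusted p = 0.0132), and Stab1, the phosphatidylserine receptor stabilin-1, fell by 0.58 ± 0.08 (adjusted p = 0.00751). In RT STING KO against sham WT, 2 rose, Scarf1 by 1.63 ± 0.27 and Cd300lb by 0.68 ± 0.11, and Timd4, the phosphatidylserine receptor of resident macrophages, fell by 1.57 ± 0.30. Of 11 other bridging molecules and opsonins, Lgals3 (galectin-3) rose by 0.53 ± 0.10 in RT STING KO and 0.94 ± 0.10 in RT WT, both against sham WT. Edil3, which like Mfge8 links phosphatidylserine to integrins, fell by 1.94 ± 0.29 in RT STING KO and by 1.47 ± 0.29 in RT WT. Neither of these lists had a call in RT STING KO against RT WT.

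Engulfment, digestion and signalling lists were counted in the same way, in comparisons that called 6.36% (RT WT against sham WT), 4.32% (RT STING KO against sham WT) and 2.09% (RT STING KO against RT WT) of all genes. Of 14 engulfment signalling genes, Rac2, a GTPase of the actin machinery, rose by 0.38 ± 0.08 in RT WT against sham WT and no other passed in any comparison. None of 16 genes of digestion and cholesterol export passed edgeR's adjusted test in any comparison, with medians of -0.04, -0.06 and -0.02 in RT STING KO against RT WT, RT STING KO against sham WT and RT WT against sham WT. Of 12 find-me and do-not-eat-me genes, S1pr1, a receptor for sphingosine-1-phosphate, fell by 0.46 ± 0.09 in RT WT against sham WT, and Cx3cr1, the receptor for the find-me chemokine fractalkine, rose by 0.68 ± 0.15 in RT STING KO against sham WT. Among 8 genes of receptor shedding and the vitamin K cycle, Adam10, a membrane protease, rose by 0.42 ± 0.08 in RT STING KO against RT WT (adjusted p = 0.0486).

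Regulators and targets around the TAM receptors changed in part. Of 12 nuclear receptors and transcription factors, none rose in either irradiated group against sham WT, and Klf4 and Klf2, both Krüppel-like factors, were among those that fell. Klf4 fell by 0.97 ± 0.13 in RT STING KO and 0.56 ± 0.13 in RT WT, and Klf2 fell by 1.08 ± 0.10 in RT STING KO and 0.57 ± 0.10 in RT WT. Klf2 also fell in RT STING KO against RT WT, by 0.52 ± 0.10 (adjusted p = 0.0476). Of 8 TAM feedback and interferon receptor genes, Socs1, a suppressor of cytokine signalling, rose by 0.44 ± 0.10 in RT WT against sham WT and fell by 1.00 ± 0.10 in RT STING KO against RT WT. Socs1 also fell in RT STING KO against sham WT, by 0.56 ± 0.10. Socs3, of the same family, fell by 0.72 ± 0.15 in RT STING KO and 0.64 ± 0.15 in RT WT against sham WT.

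Beside these, all 9 interferon-stimulated genes tested rose in RT WT against sham WT (median log2 fold change 2.00, Irf7 highest at 2.42 ± 0.21), 8 of 9 fell in RT STING KO against RT WT (median -1.31), and 1 of 9, Isg15, rose in RT STING KO against sham WT (median 0.51). Of 7 resident macrophage genes, 3 fell in each irradiated group against sham WT. Among them was Cd163, down by 1.64 ± 0.14 in RT STING KO and 1.51 ± 0.14 in RT WT. In RT STING KO against RT WT, 1 of these 7 rose and none fell. Of 8 monocyte-derived genes, 3 rose in RT STING KO and 5 in RT WT against sham WT, with Ly6c2 up by 1.82 ± 0.31 and 3.52 ± 0.29. In RT STING KO against RT WT, 2 of these 8 fell and none rose. The shares of all genes called were 4.32% in RT STING KO and 6.36% in RT WT against sham WT, and 2.09% in RT STING KO against RT WT. Mfge8 and Gas6 were measured in the same cells, and the part of the interferon, resident and monocyte-derived genes in their differences was not tested. Of the 10 cardiomyocyte genes, 7 fell in RT STING KO against sham WT (Actc1 by 0.81 ± 0.12), 1 in RT WT against sham WT and 1 in RT STING KO against RT WT.

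Across 60 profiles, 10 classes in each of 6 libraries, the levels of Gas6 and Pros1 went together with a Pearson r of 0.865 on the log2(CPM + 1) scale, and those of Mertk and Gas6 with 0.775, while Mertk and Axl gave 0.369. The genes most like Mertk were Trpv4 (0.889), Stard8 (0.889) and Lifr (0.880), and Lrp1 (0.940) and Egr2 (0.911) were among those most like Axl. Gas6 was closest to C1qtnf1 (0.950), Serpinb6a (0.944) and Sept8 (0.932), and Mfge8 to Cdc42bpa (0.944), Clstn1 (0.941) and Cd151 (0.939). Profiles of a library share its depth and free RNA, and classes were chosen from the same cells, so these values are descriptions among 9386 genes.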

How the data were processed

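The deposited files are gene by barcode matrices of UMI counts, not normalized. Per the submitters' processing notes, the tools were Cell Ranger 5.0.0 and Seurat 3 with the build mm10, and the role of each is not given there. From these counts, barcodes with at least 200 genes and at most 10% mitochondrial UMIs were kept, and in each library the highest doublet scores were removed at a rate of 0.8% for every 1000 cells (98 to 321 barcodes), since the automatic threshold marked almost none. Between 23.2% and 33.4% of barcodes exceeded the mitochondrial limit. Total counts were 31650962 to 59675213 UMIs per library.

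Cells were clustered with scanpy 1.11.5 (2000 variable genes, 30 components, 15 neighbours, Leiden resolution 1) after leaving out the 6 genes. A class name needed 3 markers, and clusters with markers of 2 lineages were set aside. The names are rebuilt here and may differ from the authors' own.

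Counts were summed per library and class where each library had 20 cells or more, and tested with edgeR 4.0.16 in R 4.3.3 (TMM, filterByExpr, quasi-likelihood, all 6 libraries in a fit, Benjamini-Hochberg adjustment over all genes, call at 0.05). Replicate libraries of a group differed by more than counting noise over all kept cells (chi-square per degree of freedom 33.5 to 74.0). That value also takes in differences in cell makeup, so it cannot show separate animals. All libraries were counted as separate in the tests. An exact permutation test of 2 against 2 libraries, two-sided, cannot go below p = 0.333 and was not used. DESeq2 1.42.0, other filters, scalings, cell limits, resolutions and left-out libraries were alternatives. The scripts were tested on simulated data. Named list genes are up to 4 of the largest called changes per list and comparison. Some genes that this rule or the likeness ranking would name are not reported here. The 6 genes and the lists were chosen with earlier results of these data known. Gene positions are from GENCODE and promoters from RefSeq. Cluster 21 of the macrophage-like class had under 20 cells in at least 1 library and was not tested alone.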

Additional observations from a re-analysis of the deposited data

Results flagged for a closer look

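The changes of Gas6 and Mfge8 in RT WT against sham WT differed between macrophage-like and endothelial-like cells by a test of the difference itself, an edgeR interaction over 13627 genes of which 1.06% were called. In RT STING KO against sham WT, where 1.72% of genes were called, neither difference passed. For Gas6 in RT WT against sham WT the macrophage-like minus the endothelial-like log2 fold change was -0.98 ± 0.14 (SE, adjusted p = 0.00970), with 314 and 331 CPM in RT WT and 433 and 431 CPM in sham WT macrophage-like cells, and 426 and 537 CPM in RT WT and 332 and 311 CPM in sham WT endothelial-like cells. For Mfge8 the difference was -0.66 ± 0.14 (adjusted p = 0.0493), with 18.8 and 20.3 CPM in RT WT and 33.4 and 38.2 CPM in sham WT macrophage-like cells, and 224 and 257 CPM in RT WT and 262 and 287 CPM in sham WT endothelial-like cells. Both rest on 2 libraries a group. Within macrophage-like clusters 0, 2, 3 and 17 the Gas6 log2 fold changes of RT WT against sham WT were 0.05, -0.27, -0.11 and -0.43. None of these passed edgeR's adjusted test, and the part of cluster makeup in the class value was not tested. The Gas6 call was lost without sham WT library 1 (adjusted p = 0.0616) or sham WT library 2 (adjusted p = 0.0952) and passed in the other 4 refits, and the Mfge8 call was lost whichever library was left out (adjusted p = 0.0745 to 0.210).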

How the results depend on the processing

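No called value of the 6 genes in a whole class, or in the difference between classes, changed sign under the alternatives run; values within clusters and of list genes were not rerun. In macrophage-like cells against sham WT, the Mfge8 call passed in 16 of 17 alternatives for RT WT and 14 of 17 for RT STING KO, and the Gas6 call of RT WT in 9 of 17. The endothelial-like Gas6 call of RT WT passed in 6 of 16. In macrophage-like cells, RT WT against sham WT had 2 called genes, and 4 with no low-count filter, 1 when the fit held only 4 libraries, 0 at a 5% mitochondrial limit, and 1 whichever library was left out. RT STING KO against RT WT had 0, and 1 with DESeq2, without a filter or without TMM factors, Gas6 each time (adjusted p = 0.0453, 0.0417 and 0.0329). RT STING KO against sham WT had 1, and 0 at the 5% limit and 0 to 1 when a library was left out. In endothelial-like cells, RT WT against sham WT had 1, and 0 with only 4 libraries, the replicate block, Leiden resolution 2, the 5% limit or doublets kept, and 0 to 1 when a library was left out. RT STING KO against sham WT had 0, and 1 without a filter, without TMM factors or with only 4 libraries, 2 at Leiden resolution 0.5, and 0 to 1 when a library was left out. In fibroblast-like cells, RT STING KO against sham WT had 0, and 1 with DESeq2 or without a filter and 0 to 1 when a library was left out, and RT WT against sham WT had 0 and 1 without a filter. In dendritic-like cells, RT STING KO against sham WT had 0, and 1 without a filter. The cause of these changes was not tested, apart from the smaller number of cells or libraries that some settings leave by construction.

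The difference between macrophage-like and endothelial-like changes in RT WT against sham WT ran from -1.14 to -0.82 for Gas6 and from -0.74 to -0.59 for Mfge8 when a library was left out, and that of Gas6 in RT STING KO against sham WT from -0.67 to -0.56. The mean share of macrophage-like cells with a UMI moved with depth, from thinning to 1000 UMIs to no thinning, from 6.08% to 32.4% for Mertk, 14.1% to 50.5% for Axl, 27.1% to 65.2% for Gas6, 7.62% to 37.5% for Pros1 and 2.56% to 15.6% for Mfge8.

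Counts over all genes moved more: in macrophage-like cells 790 were called in RT WT against sham WT, 54 to 1819 under other settings and 213 to 530 with a library left out. For RT STING KO against RT WT these were 259, 6 to 1209 and 17 to 226, and for RT STING KO against sham WT 537, 45 to 1606 and 67 to 581. In endothelial-like cells RT WT against sham WT called 543, 21 to 1497 and 63 to 1118, and RT STING KO against sham WT 674, 33 to 1597 and 71 to 1191. In all kept cells DESeq2 called 1085 genes in RT WT against sham WT, against 2 with edgeR.

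Whether replicate numbers pair the libraries is not stated in the labels. Deviations of same-numbered libraries correlated at 0.0925, 0.116 and 0.149 over 12421 genes in macrophage-like cells. With 2 libraries a group and no reference for these values, they cannot settle whether the libraries are paired. With the replicate block, macrophage-like cells had 2 called genes, Mfge8 and Gas6, in RT WT and 1, Mfge8, in RT STING KO against sham WT, and endothelial Gas6 in RT WT was at 0.61 (adjusted p = 0.101). Adding clusters 14 and 15 to the macrophage-like class, chosen after seeing the data, gave Mfge8 changes of -0.68 (adjusted p = 0.00859) in RT STING KO and -0.95 (adjusted p = 0.00352) in RT WT, and a Gas6 change of -0.51 (adjusted p = 0.0108) in RT WT, each against sham WT. Fibroblast-like cells at the 5% limit could not be fitted. Tyro3 did not pass the filter on low counts in any single class of the fits given in the report, and passed it in fibroblast-like cells under some alternatives.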
